A study of Homo sapiens with 8 samples.

Results

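The genes described here are 10 target genes of the transcription factor NRF2 that protect cells against oxidants: HMOX1, NQO1, GCLC, GCLM, TXNRD1, SRXN1, SLC7A11, AKR1B10, AKR1C1 and AKR1C3. They were listed by name as known targets of NRF2. The rule uses no measured value, but earlier results of these data were known when the list was chosen. All 10 were among the 25369 genes of the count table, and 9 of them, all but AKR1B10, were among the 14570 genes with enough reads to be tested. RNA was sequenced from LX-2, an immortalized line derived from human hepatic stellate cells, the collagen-producing cells of the liver. The cells were labelled wild type and were grown on polyacrylamide hydrogels coated with fibronectin after expansion on plastic. The hydrogel was either soft (2 kPa) or stiff (40 kPa), and RNA was taken after 2 or 4 days, with 2 libraries for each of the 4 conditions. The comparisons ask how these genes differed between the matrices at each time, and between the times on each matrix. All libraries came from 1 cell line. The methods call the replicates biological, and the study's figure legends speak of 2 independent experiments in each group, while the labels only number them. The p-values measure the spread between these libraries, which may be technical where cultures were not separate.

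NRF2, encoded by NFE2L2, is held at a low level in unstressed cells because KEAP1 passes it to the CUL3 ubiquitin ligase for degradation. Oxidants and electrophiles modify KEAP1, NRF2 accumulates, and together with a small MAF protein it binds the antioxidant response element (ARE), a short DNA element that BACH1 can occupy in its place. The targets fall into groups by role. HMOX1 opens the heme ring and NQO1 reduces quinones. GCLC and GCLM are the catalytic and modifier subunits of the enzyme that makes the first step of glutathione synthesis, and SLC7A11 imports the cystine that this synthesis needs. TXNRD1 reduces thioredoxin and SRXN1 repairs over-oxidized peroxiredoxins, while AKR1B10, AKR1C1 and AKR1C3 are aldo-keto reductases that reduce reactive carbonyls, steroids and prostaglandins. In stellate cells this program is known as a counterweight to the oxidants that accompany activation.

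The letters of the ARE core, TGACNNNGC, were searched on both strands of promoters in the RefSeq promoter table (GRCh38.p14), each reaching from 250 bases before to 50 bases after a start site, because the element is what the genes of this group have in common. The table held promoters of 7 of the 10 genes (9 promoters), all but HMOX1, SLC7A11 and AKR1B10. The core was present in the promoters of 2 of these 7 genes, GCLM and TXNRD1 (3 of 9 promoters), and in 13.3% of all 35116 promoters. The matches are given 5′ to 3′ on the gene's strand, with the core or its reverse complement in capitals and 30 bases each. Their coordinates on GRCh37 come from an exact match of the promoter to that genome. In GCLM (minus strand) the core occupied positions -34 to -26, counting the first transcribed base as 0, at chr1:94375001-94375030. In TXNRD1 (plus strand) the cores were at positions -99 to -91 (chr12:104609448-104609477) and -8 to 0 (chr12:104609539-104609568) of the upstream start, and at positions -102 to -94 of the downstream start (chr12:104680698-104680727).
GCLM: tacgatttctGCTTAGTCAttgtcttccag
TXNRD1 upstream start, distal: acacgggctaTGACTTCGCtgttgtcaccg
TXNRD1 upstream start, proximal: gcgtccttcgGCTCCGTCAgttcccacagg
TXNRD1 downstream start: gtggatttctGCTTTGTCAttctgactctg
The first of the TXNRD1 cores reads in the direction of the gene, and the other cores read on the opposite strand. The AP-1 element TGANTCA, searched in the same way, was in none of the 9 promoters and in 7.71% of all promoters, and it overlapped none of the ARE cores. A match is a description of the letters, and its absence says only that they are not in this window.

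The libraries held 19955975 to 27263935 counts assigned to genes, with a median of 22598474. The stellate cell and myofibroblast markers were uneven. COL1A1 (504 to 1021), VIM (1966 to 6360), TAGLN (339 to 948) and SPARC (434 to 800 CPM, counts scaled to the same library size) were abundant. ACTA2 (8.02 to 19.4), PDGFRB (10.9 to 24.7) and COL1A2 (2.13 to 4.06 CPM) were low, and desmin (DES) had at most 2 counts in any library. Markers of other liver cells were low. TTR, CD163 and LYVE1 had 0 counts in all 8 libraries, and the summed level was 4.45 to 10.5 CPM for hepatocyte markers, 4.16 to 7.78 CPM for leukocyte markers and 0.147 to 1.09 CPM for endothelial markers. The cholangiocyte list summed to 32.2 to 71.2 CPM, carried by SOX9 and KRT7. The 2 stiff 4-day libraries stood apart from each other: the median size of the log2 difference between replicates over all tested genes was 0.467 there, against 0.141, 0.0942 and 0.207 in the soft 2-day, stiff 2-day and soft 4-day groups. The calls of members in comparisons that include these libraries are therefore also given without each of them. In RNA from whole cultures, fewer cells of a kind and less RNA per cell cannot be told apart.

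Per gene length, HMOX1 had the highest mean level of the 10 genes at 2 days, and its mean lay below 5 of the others at 4 days. On the FPKM scale (fragments per kilobase of gene length, scaled for depth), its level on the soft matrix at 2 days was 46.2 ± 3.41 (SD, n = 2, as for all means here), followed by TXNRD1 at 39.6 ± 0.710 and SRXN1 at 35.4 ± 2.78. AKR1C1 was at 33.3 ± 1.54, NQO1 at 30.4 ± 0.297 and GCLM at 27.6 ± 0.380 FPKM. SRXN1 and its neighbour AKR1C1 did not differ beyond their spread. GCLC lay below these at 8.2 ± 0.365, and AKR1C3 (1.65 ± 0.0804) and SLC7A11 (1.44 ± 0.291 FPKM) were the lowest of the tested genes and did not differ beyond their spread. After 4 days on the soft matrix TXNRD1 led at 64.2 ± 5.88 FPKM and NQO1 came next at 48.7 ± 3.59, with HMOX1 at 15.3 ± 1.02, below SRXN1, AKR1C1 and GCLM. On the stiff matrix at 4 days HMOX1 (13.9 ± 2.50) and AKR1C1 (15.5 ± 5.42 FPKM) did not differ beyond their spread. AKR1B10 was at or near 0 throughout: it had 0 counts in 5 libraries, 1 count in 2 and 2 counts in 1, all under the floor of 3 counts (0.106 to 0.173 CPM), so no fold is given for it.

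**Figure D1:**
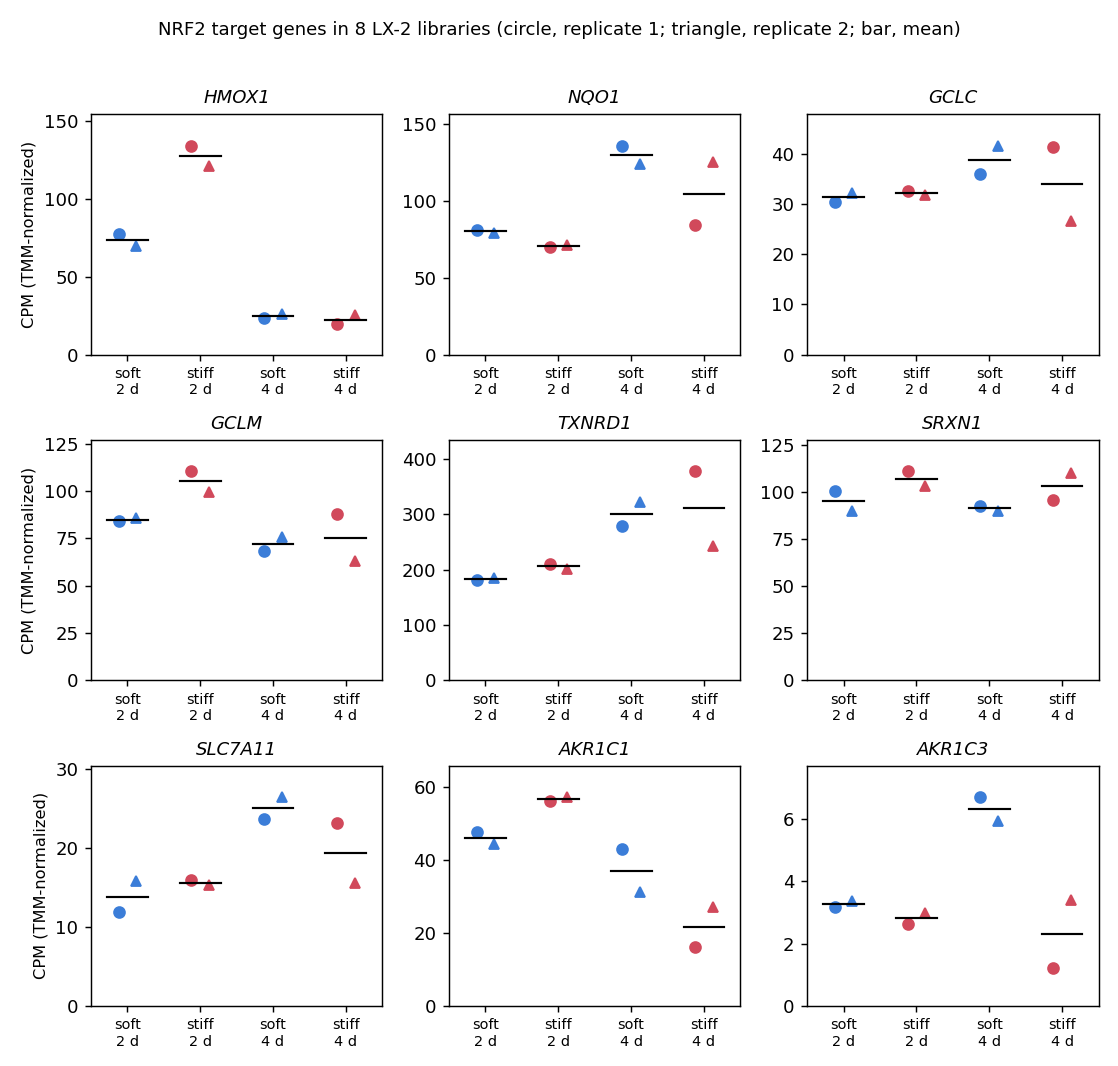
Level of each tested gene in each of the 8 libraries in CPM, by matrix and day. Each library is 1 point, with a bar at the mean of the 2 libraries. HMOX1 lies at 121 to 134 CPM in the stiff 2-day libraries and at 19.4 to 26.0 CPM in the 4-day libraries of both matrices.

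At 2 days, HMOX1 had the largest difference between the matrices among the 9 tested genes and stood higher on the stiff matrix, but neither HMOX1 nor any other member passed the test corrected over all genes. HMOX1 (chromosome 22, 35776354 to 35790207, plus strand, GRCh37) was measured at 77.5 and 69.6 CPM on the soft matrix and at 134 and 121 CPM on the stiff matrix. The groups did not overlap, and the stiff libraries were 1.74-fold higher (log2 fold change 0.80 ± 0.163, SE, edgeR adjusted p = 0.664). Of the 14570 genes tested, 109 had a larger rise. With edgeR's quasi-likelihood test, 0 of 9 members had an adjusted p under 0.05, as did 0% of all genes, and 1 of 9 (HMOX1) had an unadjusted p under 0.05, against 2.82% of all genes. The call of HMOX1 depended on how the spread between libraries was estimated. With DESeq2 HMOX1 alone was called (adjusted p = 0.0144; 0.192% of all genes called), and limma on the FPKM called none. An edgeR fit of the 4 libraries of this day called HMOX1 (adjusted p = 6.62e-09), GCLM (0.0279) and AKR1C1 (0.0431), with 4.67% of all genes called. Without the stiff 4-day replicate 1 or 2, which are no part of the comparison but of its estimate of spread, HMOX1 was called with an adjusted p of 0.00061 (0.792% of all genes) or 0.000667 (0.813%).

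The other detoxifying enzyme of this group, NQO1 (chromosome 16, 69740899 to 69760571, minus strand), was at 80.6 and 79.2 CPM on the soft and at 69.7 and 71.3 CPM on the stiff matrix at 2 days. NQO1 was thus lower in both stiff libraries, by a small step that did not pass the test (log2 fold change -0.18 ± 0.187). Of the glutathione genes, the modifier subunit GCLM (chromosome 1, 94350755 to 94375012, minus strand) was at 84.3 and 85.6 CPM on the soft and at 110.5 and 99.7 CPM on the stiff matrix. GCLM did not overlap between the matrices (log2 fold change 0.31 ± 0.175, edgeR adjusted p = 1). The catalytic subunit GCLC was at 30.4 and 32.2 CPM against 32.6 and 31.8, and the transporter SLC7A11 at 11.9 and 15.8 against 16.0 and 15.3 CPM, and both overlapped between the matrices. The direction of GCLC turned without scaling factors between libraries. The fitted log2 differences of these genes were 0.04 ± 0.206 for GCLC and 0.17 ± 0.223 for SLC7A11.

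The thioredoxin and peroxiredoxin enzymes lay slightly above their soft values on the stiff matrix at 2 days. TXNRD1 was at 181 and 185 CPM on the soft and 211 and 200.3 CPM on the stiff matrix, a log2 difference of 0.17 ± 0.205. SRXN1 was at 100.7 and 89.8 against 111 and 103 CPM, also a log2 difference of 0.17 (SE 0.135). In both genes the stiff libraries were above the soft ones without passing the test. Of the aldo-keto reductases, AKR1C1 was at 47.6 and 44.4 CPM on the soft and 56.3 and 57.3 CPM on the stiff matrix, with no overlap (log2 fold change 0.30 ± 0.245). AKR1C3, at 3.17 and 3.38 against 2.65 and 2.97 CPM, lay below its soft values in both stiff libraries (log2 fold change -0.22 ± 0.381). In all, 7 of 9 members did not overlap between the matrices at 2 days, 5 higher and 2 lower on the stiff matrix, where 48.2% of all genes did not overlap. The members' median log2 fold change was 0.17, against 0.0081 over all tested genes.

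At 4 days the 9 tested genes did not share a direction, and the difference at HMOX1 was no longer seen. HMOX1 was at 23.3 and 26.0 CPM on the soft and 19.4 and 25.2 CPM on the stiff matrix, and the groups overlapped (log2 fold change -0.14 ± 0.168, edgeR adjusted p = 0.893). The largest differences were those of the aldo-keto reductases, whose stiff libraries lay below the soft ones. AKR1C3 (chromosome 10, 5077546 to 5149878, plus strand), a prostaglandin and steroid reductase, was at 6.72 and 5.95 CPM on the soft and at 1.23 and 3.40 CPM on the stiff matrix, from 144, 132, 25 and 59 counts. Both stiff libraries were below both soft ones, with a 2.77-fold lower level that missed the corrected threshold (log2 fold change -1.47 ± 0.391, edgeR adjusted p = 0.337). Its log2 fold change was -0.89 without stiff 4-day replicate 1 and -2.35 without replicate 2. AKR1C1 (chromosome 10, 5005445 to 5025475, plus strand) was at 42.9 and 31.2 CPM on the soft and at 16.3 and 27.1 CPM on the stiff matrix. It was likewise lower in both stiff libraries (1.71-fold, log2 fold change -0.78 ± 0.251, edgeR adjusted p = 0.483), with log2 fold changes of -0.44 without stiff 4-day replicate 1, -1.18 without replicate 2 and -0.51 without soft 4-day replicate 1.

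These genes have close copies, which limits the split of their reads. Over all protein-coding transcripts of AKR1C1 pooled, 799 of 6894 distinct stretches of 100 bases (11.6%) also occur in AKR1C2. For AKR1C3, pooled likewise, the share is 4.54% with AKR1C2 and 1.2% with AKR1C1. The length of AKR1C1 implied by the FPKM is only 1379 bases, so the share in the sequence counted may be higher and was not measured. Their counts are uncertain where reads could belong to either. AKR1C2 itself was at 48 to 275 counts in the 8 libraries, and its stiff and soft levels at 4 days differed by -0.25 on the log2 scale. AKR1B1, the widely expressed relative of AKR1B10, was at 131 to 222 CPM, and AKR1C4 and AKR1B15 had at most 1 count in any library. Exons of AKR1C3, GCLC and SRXN1 also overlap other annotated genes on the same strand, and those of NQO1, GCLC and SLC7A11 overlap genes on the other strand. Whether counting used the strand is not given in the sources used here.

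The remaining members at 4 days lay closer together. NQO1 was at 136 and 124 CPM on the soft and 84.1 and 125 CPM on the stiff matrix, with overlap (log2 fold change -0.31 ± 0.187). SLC7A11 was at 23.8 and 26.5 against 23.2 and 15.6 CPM, without overlap (log2 fold change -0.37 ± 0.222). Neither passed the test. GCLC was at 36.1 and 41.6 against 41.3 and 26.7 CPM, GCLM at 68.3 and 75.7 against 87.7 and 62.8, and TXNRD1 at 278 and 322 against 378 and 243 CPM. In GCLM and TXNRD1 the stiff replicates lay on either side of both soft values, and in GCLC 1 lay between them and the other below, and the sign of GCLM and TXNRD1 turned without scaling factors. SRXN1, at 92.9 and 89.9 against 95.9 and 110.5 CPM, was the only member above its soft values in both stiff libraries (log2 fold change 0.18 ± 0.135).

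With edgeR, 0 of 9 members had an adjusted p under 0.05 between the matrices at 4 days, against 0.247% of all genes, and 2 of 9 (AKR1C1 and AKR1C3) had an unadjusted p under 0.05, against 6.93%. DESeq2 and limma called none of them either. The groups did not overlap for 4 of 9 members, 1 higher and 3 lower, and for 25.7% of all genes, and the members' median log2 fold change was -0.19 against 0.020 over all genes. The 2 stiff libraries decided which members were called. Without stiff 4-day replicate 1, GCLC, SLC7A11 and AKR1C3 were called lower on the stiff matrix, with 31.1% of all genes called. Without replicate 2, NQO1, AKR1C1 and AKR1C3 were called lower, with 3.63% of all genes called. AKR1C3 was thus the member called in both cases, although not with both libraries in the fit.

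**Figure D2:**
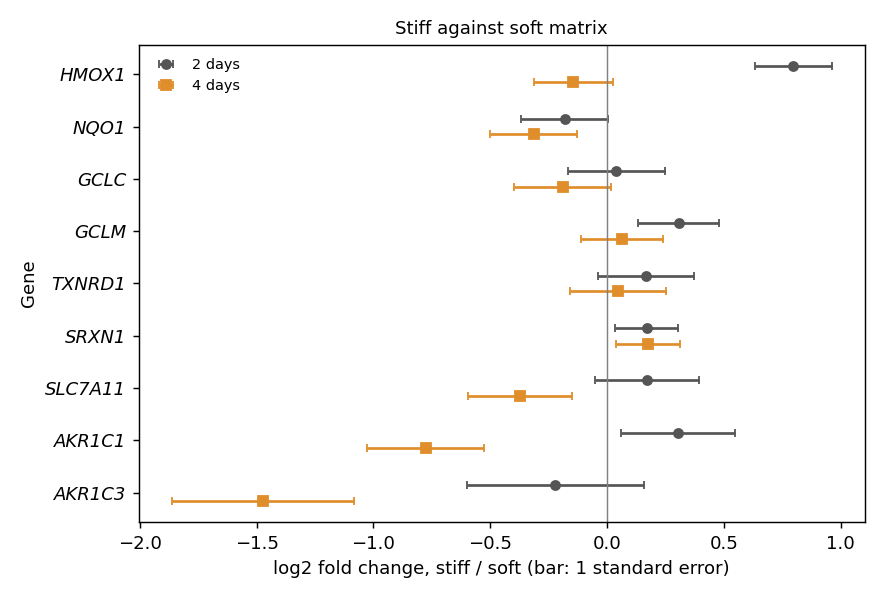
Difference between stiff and soft matrix for the 9 tested genes, as the log2 fold change fitted with edgeR, at 2 days (circles) and 4 days (squares), with bars of 1 SE. HMOX1 lies at 0.80 at 2 days and -0.14 at 4 days, and AKR1C3 at -0.22 and -1.47.

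Between the replicates of the stiff 4-day group, the direction of the members' difference went with their length. Replicate 1 exceeded replicate 2 in GCLM, GCLC, TXNRD1 and SLC7A11, by 0.48, 0.63, 0.64 and 0.57 on the log2 CPM scale. These 4 genes have the longest transcripts of the 9, with 3074 to 9648 bases as implied by the FPKM. Replicate 1 was below replicate 2 in AKR1C1, HMOX1, AKR1C3, NQO1 and SRXN1, by log2 differences of -0.73, -0.38, -1.41, -0.57 and -0.20, and these genes measure 1379 to 2689 bases. Over all genes, the median deviation of long genes minus that of short genes was 0.313 in replicate 1 and -0.610 in replicate 2, against -0.120 to 0.215 in the other 6 libraries. With offsets for length in each library, a fit chosen after these values were seen, AKR1C1 was called lower on the stiff matrix at 4 days (log2 fold change -0.94, edgeR adjusted p = 0.0135; 0.810% of all genes called). The part of length in the other differences was not tested.

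**Figure D3:**
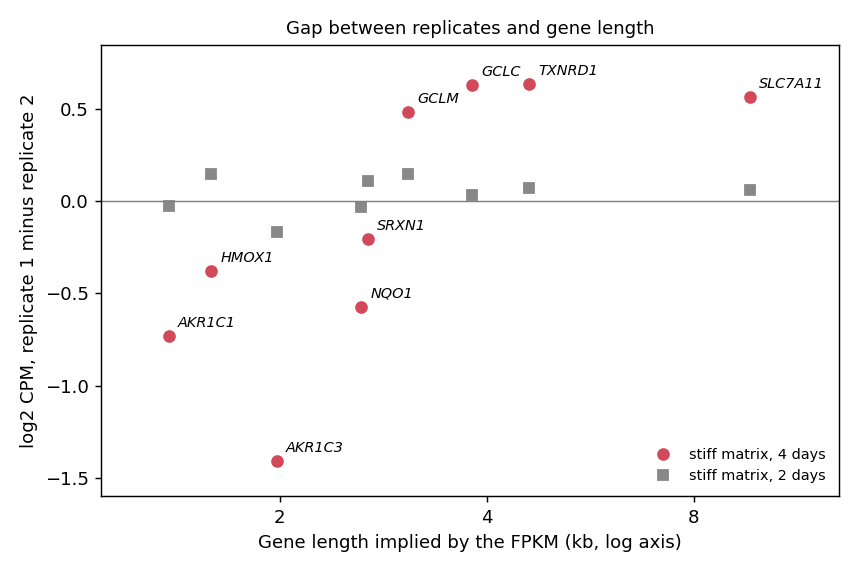
Difference in log2 CPM between replicates 1 and 2 on the stiff matrix against gene length in kilobases (log axis), for the 9 tested genes at 4 days (circles) and 2 days (squares). At 4 days the 4 genes of 3074 bases or more lie above 0, between 0.48 and 0.64, and the 5 shorter ones below 0, between -0.20 and -1.41.

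Averaged over both days, no member differed between the matrices with an adjusted p under 0.05 in edgeR (0 of 9, against 0.426% of all genes), and 2 of 9 had an unadjusted p under 0.05, against 7.70%. These were HMOX1, higher on the stiff matrix (log2 fold change 0.33 ± 0.117, edgeR adjusted p = 0.484), and AKR1C3, lower (-0.85 ± 0.273, edgeR adjusted p = 0.413). For this mean, HMOX1 (higher) and AKR1C3 (lower) were called without stiff 4-day replicate 1, with 19.8% of all genes called. Without replicate 2, GCLM was called higher and NQO1, AKR1C1 and AKR1C3 lower, with 6.83% of all genes called. Whether the stiffness effect itself differed between the days was tested as an interaction, which was called in 0 of 9 members and 0% of all genes at an adjusted p under 0.05, and in 2 of 9 members, against 1.95% of all genes, at an unadjusted p under 0.05. These were HMOX1 (log2 change -0.94 ± 0.234, edgeR adjusted p = 1) and AKR1C1 (-1.08 ± 0.350, edgeR adjusted p = 1). DESeq2 and limma called no member for the mean of both days or for the interaction. Without stiff 4-day replicate 1 the interaction was called, with a negative sign, in HMOX1, GCLC, GCLM, SLC7A11 and AKR1C1 (20.9% of all genes called), and without replicate 2 in HMOX1, AKR1C1 and AKR1C3 (0.0799% of all genes).

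From 2 to 4 days, HMOX1 fell on both matrices, and this was the steepest change of any member. On the soft matrix HMOX1 went from 77.5 and 69.6 to 23.3 and 26.0 CPM, a 2.99-fold lower level (log2 fold change -1.58 ± 0.168, edgeR adjusted p = 0.00172). On the stiff matrix it went from 134 and 121 to 19.4 and 25.2 CPM, a 5.74-fold lower level (log2 fold change -2.52 ± 0.174, edgeR adjusted p = 0.000737). The fall on the stiff matrix starts from the same 2-day libraries as the difference between the matrices at 2 days, so these values are not independent. Of all 14570 genes, 191 had a larger fall on the stiff matrix.

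Several members rose on the soft matrix over the same time. NQO1 rose from 80.6 and 79.2 to 136 and 124 CPM (1.62-fold, log2 fold change 0.70 ± 0.187, edgeR adjusted p = 0.0289). TXNRD1 rose from 181 and 185 to 278 and 322 CPM (1.64-fold, 0.71 ± 0.206, edgeR adjusted p = 0.0373). The cystine transporter SLC7A11 rose from 11.9 and 15.8 to 23.8 and 26.5 CPM (1.81-fold, 0.86 ± 0.223, edgeR adjusted p = 0.0261). In each of these genes both 4-day libraries were above both 2-day libraries, a pattern whose share over all genes was not counted. AKR1C3, from 3.17 and 3.38 to 6.72 and 5.95 CPM, did not overlap either but missed the threshold (0.95 ± 0.367, edgeR adjusted p = 0.0908). AKR1C3 was called higher in an edgeR fit of the 4 soft libraries (adjusted p = 0.000256), with length offsets (0.0205) and without stiff 4-day replicate 1 (0.000484) or 2 (0.00066). GCLC (0.31), GCLM (-0.24), SRXN1 (-0.06) and AKR1C1 (-0.31 on the log2 scale) did not pass. On the soft matrix 4 of 9 members were thus called at an adjusted p under 0.05, 3 higher and 1 lower, against 27.4% of all genes, and 5 of 9 at an unadjusted p under 0.05, against 41.0%. DESeq2, like edgeR, called 4 of 9, with 29.6% of all genes called. The calls of NQO1, TXNRD1 and SLC7A11 were lost without any 1 of the 4 soft libraries, and without either stiff 2-day library. Fewer of all genes were called in those fits as well. The call of HMOX1 was kept. With any 1 library left out, the log2 fold changes were -1.66 to -1.50 for HMOX1 and 0.61 to 0.76 for NQO1. They were 0.60 to 0.79 for TXNRD1 and 0.67 to 1.08 for SLC7A11. The fit of the 4 soft libraries called 5 of 9, with 50.7% of all genes called. Without stiff 4-day replicate 1, 7 of 9 were called on the soft matrix (52.9% of all genes), and without replicate 2, 8 of 9 (52.7%).

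On the stiff matrix the second member to pass was AKR1C1, which fell from 56.3 and 57.3 to 16.3 and 27.1 CPM (2.63-fold, log2 fold change -1.39 ± 0.252, edgeR adjusted p = 0.00795). This call was lost without either stiff 2-day library. The soft matrix gave a log2 fold change of -0.31 ± 0.246 for AKR1C1 over the same days, and the difference between the matrices in this change is the interaction given above, with an adjusted p of 1 in edgeR. Its copy AKR1C2 fell on both matrices, by 1.16 and 1.52 on the log2 scale (edgeR adjusted p = 0.0298 and 0.0134). NQO1 (0.57 ± 0.187, edgeR adjusted p = 0.0571), TXNRD1 (0.59 ± 0.206, 0.0659) and GCLM (-0.48 ± 0.176, 0.0773) lay just outside the threshold on the stiff matrix. With edgeR, 2 of 9 members were called there, both lower, against 27.6% of all genes, and 5 of 9 had an unadjusted p under 0.05, against 41.4%. DESeq2 called 4, adding higher NQO1 and TXNRD1, with 29.8% of all genes called. With length offsets 6 of 9 were called on the stiff matrix and 5 of 9 on the soft matrix, with 41.7% and 42.4% of all genes. Without stiff 4-day replicate 1, HMOX1, GCLM and AKR1C1 were called lower and NQO1 higher on the stiff matrix, with 52.1% of all genes called. Without replicate 2, HMOX1, AKR1C1 and AKR1C3 were called lower and GCLC, TXNRD1 and SLC7A11 higher, with 43.8% of all genes called. A fit of the 4 stiff libraries alone called 0 of 9 and 0% of all genes, with adjusted p values of 0.0513 for HMOX1 and 0.067 for AKR1C1.

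**Figure D4:**
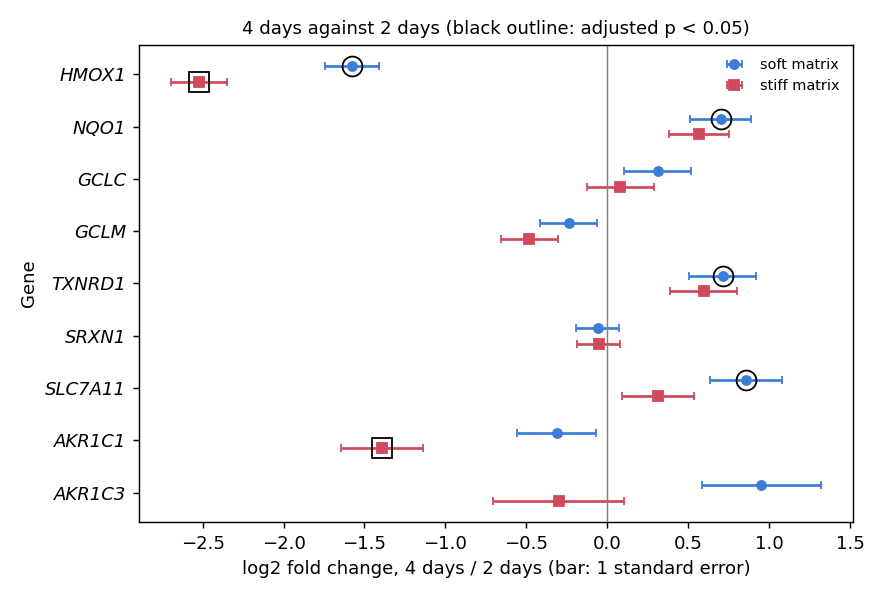
Change from 2 to 4 days for the 9 tested genes, as the log2 fold change fitted with edgeR on the soft and on the stiff matrix, with bars of 1 SE. HMOX1 lies at -1.58 and -2.52, and NQO1 and TXNRD1 lie between 0.57 and 0.71 on both matrices.

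The regulators of NRF2 differed little between the matrices. NFE2L2 itself was at 49.1 and 51.7 CPM on the soft and 43.8 and 45.4 CPM on the stiff matrix at 2 days, and at 67.0 and 75.5 against 65.6 and 55.1 CPM at 4 days. Both stiff libraries lay under both soft ones at each time, but the mean log2 difference of -0.21 did not pass (edgeR adjusted p = 0.731). KEAP1, the adaptor that holds NRF2 low, differed by 0.04 at 2 days and 0.17 at 4 days on the log2 scale, and BACH1, the repressor of HMOX1, by 0.31 and -0.12. None of the 9 tested regulators was called in any stiffness comparison by edgeR. The smallest p values belonged to the small MAF protein MAFF (mean log2 difference 0.30, edgeR adjusted p = 0.485), NFE2L2 and CUL3 (0.17, adjusted p = 0.732). With time, 4 of 9 regulators were called on the soft matrix, 1 higher and 3 lower, and 3 of 9, all lower, on the stiff matrix, against 27.4% and 27.6% of all genes. The next changes were chosen after their values were seen. The small MAF genes MAFG (-0.96 and -0.99) and MAFK (-1.24 and -1.22 on the log2 scale) fell on both the soft and the stiff matrix. NFE2L2 rose by 0.50 on the former (edgeR adjusted p = 0.0357). Its rise on the latter was 0.44, also without overlap between the days, and just missed the threshold (edgeR adjusted p = 0.0555). BACH1 also lay higher in both soft 4-day libraries (59.5 and 68.1 CPM, against 40.5 and 46.4 at 2 days). On the stiff matrix the BACH1 values of the days overlapped (73.5 and 44.1 CPM at 4 days, 57.7 and 49.8 at 2 days).

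Of 28 other NRF2 targets 25 were tested, and 0 were called by edgeR in a stiffness comparison. The nearest was ABCC3, an export pump for organic anions, with stiff values under the soft ones at either time. ABCC3 was at 10.8 and 11.3 CPM on the soft and 5.96 and 6.41 CPM on the stiff matrix at 2 days, and at 5.23 and 4.82 against 3.04 and 1.90 CPM at 4 days. The groups did not overlap at either time, and the mean difference was 1.90-fold (log2 fold change -0.92 ± 0.159, edgeR adjusted p = 0.0676). Malic enzyme ME1, a source of NADPH, came next with -0.54 at 4 days (edgeR adjusted p = 0.42), then TRIM16L with -0.56 at 4 days (edgeR adjusted p = 0.568). With time 6 of the 25 were called on the soft matrix, 3 higher and 3 lower, and 7 on the stiff matrix, 3 higher and 4 lower, shares close to the 27.4% and 27.6% of all genes. ME1 rose on both (1.26 and 0.78 on the log2 scale) and ABCC3 fell on both (by 1.14 and 1.31).

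Of 20 redox enzymes not counted as NRF2 targets, 19 were tested, and edgeR called 0 of them between the matrices. Mitochondrial superoxide dismutase SOD2 had the smallest p, with a mean log2 difference of -0.37 (edgeR adjusted p = 0.268), followed by HMOX2, the constitutive relative of HMOX1 (0.50 at 4 days, edgeR adjusted p = 0.819), and the extracellular SOD3 (-0.38 at 4 days, edgeR adjusted p = 0.821). With time 2 of 19 were called on the soft matrix, both higher, and 3 of 19 on the stiff matrix, 2 higher and 1 lower, against 27.4% and 27.6% of all genes. The higher ones on either matrix were GPX8, a peroxidase of the endoplasmic reticulum, and PRDX3, a mitochondrial peroxiredoxin.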

How the data were processed

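RNA-seq of 8 LX-2 libraries (2 matrices, 2 days, n = 2) was used. According to the submitters' processing notes and the methods, reads were trimmed with Trim Galore and aligned with STAR 2.7.1a to hg19; HTSeq and DESeq2 are also named. The authors deposited raw read counts for each gene, and FPKM that equal these counts divided by a size factor and a gene length; the annotation and strand setting are not given in the sources used here. Counts were tested with edgeR 4.0.16 (R 4.3.3): TMM scaling (factors 0.870 to 1.08), filterByExpr, one quasi-likelihood fit of all 8 libraries, two-sided tests, Benjamini-Hochberg adjustment over 14570 genes, calls at an adjusted p under 0.05. CPM use the TMM-scaled library sizes. Floors cover counting error only. DESeq2 1.42.0 and limma 3.58.1 (on log2(FPKM + 1) or log2(FPKM + 0.1)) were alternatives, beside other scaling, filters, single-comparison fits, the replicate number as a block and each library left out.

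The 10 genes and all lists were chosen with earlier results of these data known. All members, NFE2L2, KEAP1, BACH1 and the AKR copies were named, and from each further list, where no gene was called between the matrices, up to 3 genes with the smallest p in a stiffness comparison. Gene positions come from GENCODE v44lift37. Replicates were compared by a chi-square of their counts, which exceeded its degrees of freedom 3.53- to 119.7-fold, so no library was counted as a duplicate. The study's other assays were not used here.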

Additional observations from a re-analysis of the deposited data

Results flagged for a closer look

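AKR1C1 was the member whose difference between the matrices turned from 2 to 4 days in every library: both stiff libraries were above both soft ones at 2 days (56.3 and 57.3 against 47.6 and 44.4 CPM), and both were below them at 4 days (16.3 and 27.1 against 42.9 and 31.2 CPM). How many of all genes turned in this way was not counted. Separation of soft from stiff libraries was common, in 48.2% of all genes on day 2 and 25.7% on day 4, in either direction. The turn alone therefore does not set AKR1C1 apart from other genes. The change of the AKR1C1 effect was -1.08 on the log2 scale (SE 0.350) and missed the corrected threshold (edgeR adjusted p = 1), although its unadjusted p was under 0.05. Without stiff 4-day replicate 1 the change was -0.74 (edgeR adjusted p = 0.021), and without replicate 2 it was -1.47 (edgeR adjusted p = 0.0293). Some reads of AKR1C1 could also belong to AKR1C2, and their part in this value was not tested.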

How the results depend on the processing

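The fall of HMOX1 from 2 to 4 days on the soft matrix was called in all 12 alternatives and without any 1 library. The number of members called between the matrices at 2 days was 0, and 1 with DESeq2 and 3 in the fit of 4 libraries; at 4 days it was 0, and 1 with length offsets. On the soft matrix 4 members changed with time, against 2 without scaling factors (24.5% of all genes called). It was 1 (HMOX1) with limma without a filter (16.7%) and with a replicate block (18%), and 5 with length offsets and in the fit of 4 libraries. On the stiff matrix 2 changed, against 4 with DESeq2, 0 in the fit of 4 libraries and 6 with length offsets. The replicate numbers were not shown to pair the libraries (correlations of same-numbered deviations -0.490 to 0.0773). The replicate block called 0 members in the stiffness comparisons (0% to 0.199% of all genes) and 2 with time on the stiff matrix (17.5%). Crossing the numbers of the stiff 4-day libraries, chosen after seeing the data, gave 4 with time on either matrix, with 31.2% of all genes called on each. Leaving out 1 library gave 0 to 1 members at 2 days, 0 to 3 at 4 days, 0 to 4 for the mean of both days, 0 to 5 for the interaction, 1 to 8 with time on the soft and 1 to 6 on the stiff matrix.

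Over all genes, the calls were 0 at 2 days (0 to 667 over the alternatives, 0 to 122 leaving out 1 library), 36 at 4 days (0 to 166, and 0 to 4676), 62 for the mean (29 to 219, and 0 to 2968), 0 for the interaction (0 to 11, and 0 to 3139), 3985 with time on the soft matrix (2626 to 7261, and 347 to 7941) and 4024 on the stiff matrix (0 to 6081, and 470 to 7826). No uncalled direction below is a finding. Without scaling factors the sign turned for GCLC at 2 days (-0.027) and with time on the stiff matrix (-0.032), for GCLM (-0.041) and TXNRD1 (-0.052) at 4 days, and for the interaction of SRXN1 (-0.053; -0.026 with length offsets). Leaving out 1 library, the log2 fold changes spanned 0 for GCLC at 2 days (-0.00040 to 0.085), 4 days (-0.53 to 0.099), mean (-0.25 to 0.065), interaction (-0.57 to 0.068) and time on stiff (-0.27 to 0.35); SLC7A11 at 2 days (-0.018 to 0.39), mean (-0.25 to 0.028) and time on stiff (-0.0028 to 0.56); TXNRD1 at 4 days (-0.29 to 0.34), mean (-0.065 to 0.25) and interaction (-0.46 to 0.18); and SRXN1 interaction (-0.081 to 0.12), time on soft (-0.14 to 0.024) and on stiff (-0.17 to 0.043). The same held for GCLM (-0.19 to 0.29) and HMOX1 (-0.34 to 0.044) at 4 days, the NQO1 interaction (-0.43 to 0.14) and AKR1C3 with time on stiff (-1.20 to 0.27). The causes were not tested.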
